A study of Mus musculus with 3 samples.

Results

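The genes described here are 9 of the 32285 genes in the count files: F3, Tfpi, Serpine2, Plau, Plaur, Plat, Thbd, Procr and Thbs1. They were chosen by name, for their roles in starting and limiting blood clotting and in activating plasminogen. The study asked which kinds of adipocyte precursor live in the stromal vascular fraction, the cells left when digested fat has lost its floating adipocytes. That fraction was taken from the inguinal subcutaneous fat of 3 wild-type male C57BL/6J mice at 8 weeks of age. Cells without CD31, a surface protein of endothelium, and without CD45, a surface protein of leukocytes, were sorted, and each mouse gave 1 droplet library. All mice belong to 1 untreated group, so the comparisons run between kinds of cell within the same 3 mice. The tissue was digested with collagenase at body temperature before sorting, and every cell compared here went through that step.

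Tissue factor, encoded by F3, is the membrane receptor that starts coagulation when it meets factor VII of the blood. Tfpi encodes its circulating and surface-bound inhibitor. Thrombomodulin (Thbd) binds thrombin and turns it from a clotting enzyme into an activator of protein C, which slows clotting, and the endothelial protein C receptor (Procr) binds protein C and presents it for that activation. Clots are dissolved by plasmin, which tissue-type plasminogen activator (Plat) and urokinase (Plau) cut from plasminogen. Urokinase works largely on its surface receptor (Plaur), and protease nexin-1 (Serpine2) inhibits thrombin as well as the plasminogen activators. Thrombospondin-1 (Thbs1) is a matricellular glycoprotein that platelets release and that binds many matrix proteins and receptors. Stromal cells of fat lie outside the vessel wall, where tissue factor is normally held away from blood.

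Cells were kept when over 500 genes were detected and mitochondrial genes gave under 5% of the UMIs (unique molecular identifiers, each standing for 1 captured RNA molecule), leaving 12984, 6414 and 15179 cells in mice 1, 2 and 3. Cells were then assigned to gates by the UMIs of 6 other genes. The progenitor gate needed at least 3 UMIs of Dpp4 and Pi16 together and at most 1 of Icam1 and Fabp4, and it held 7426, 3193 and 9312 cells. The preadipocyte gate needed at least 4 UMIs of Icam1 and Fabp4 together and at most 1 of Dpp4, and it held 2300, 1489 and 1946 cells. The regulatory gate needed at least 1 UMI each of Clec11a and Fmo2 and at most 1 each of Fabp4 and Dpp4, and it held 319, 503 and 500 cells. In all, 264 cells met the criteria of a second gate and were counted in both, and 7853 kept cells met none. All 264 were among the 1322 regulatory cells: 174 were also in the preadipocyte gate and 90 also in the progenitor gate. Median UMIs per cell ran from 6687 to 12056 in the progenitor gate, from 7257 to 12997 in the preadipocyte gate and from 4815 to 10957 in the regulatory gate, so regulatory cells were the shallowest in each mouse. The libraries shared between 37 and 59 cell barcodes in pairs.

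The gate names were checked against genes that the gates did not use. Of 8 progenitor markers, including Cd55, Anxa3 and Sema3c, 8 were lower in the preadipocyte gate and 7 in the regulatory gate than in the progenitor gate. All 7 preadipocyte markers, including Pparg and Lpl, were higher in the preadipocyte than in the progenitor gate. Of 6 regulatory markers, 5 were higher in the regulatory gate than in the progenitor gate and 6 than in the preadipocyte gate; Mgp averaged 951 CPM (the usual per-depth scale: the UMIs of a gene over all UMIs of the summed cells) against 19.8 and 75.6. Markers of other cell types were also summed within the gates. The 8 endothelial markers together summed to between 2.92 and 8.84 CPM in the progenitor gate and between 4.33 and 6.28 CPM in the regulatory gate. In the preadipocyte gate they summed to between 4.96 and 64.0 CPM, and 53 of its 5735 cells had at least 3 UMIs of Pecam1 and Cdh5 together. The 7 leukocyte markers summed to at most 20.0 CPM in any gate and mouse, the 5 mesothelial markers to at most 35.0 CPM and the 4 Schwann cell markers to at most 35.5 CPM. The 6 mural markers summed to between 22.7 and 33.0 CPM in the progenitor gate and between 55.9 and 105 CPM in the other gates. The summed level of 24 genes known to respond to tissue dissociation, such as Fos, Jun and Hspa1a, was lower in the progenitor gate (21174 to 24964 CPM) than in the preadipocyte gate (31310 to 38770.3 CPM) or the regulatory gate (31601 to 34942 CPM). How much of the differences below moves with that response was not tested.

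UMIs were summed per mouse and gate, and edgeR's quasi-likelihood test, with the mouse as a block, was run on these sums, at a Benjamini-Hochberg adjusted p of 0.05 over all genes tested. Between the preadipocyte and progenitor gates, 7588 of 13379 genes passed, which is 56.7%, and 8 of the 9 genes passed, 3 of them higher and 5 lower in preadipocytes. Between the regulatory and progenitor gates, 44.7% of genes passed, and so did 7 of the 9, with 3 higher and 4 lower in regulatory cells. Between the regulatory and preadipocyte gates, 25.6% passed, and so did 8 of the 9, with 5 higher and 3 lower. These backgrounds are high, so a call alone says little and the size of each difference is given below. The 9 genes were chosen by name, with earlier results of these data known, so their share of calls was not tested against the background.

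**Figure D1:**
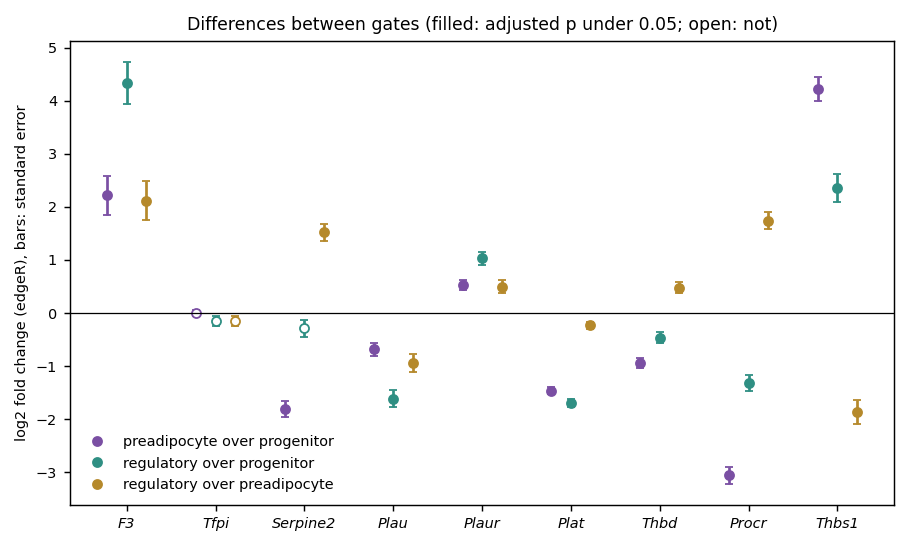
Log2 fold change of each of the 9 genes (horizontal axis) between gates, from edgeR, with the standard error as bars, 3 mice per gate. Filled points passed an adjusted p of 0.05; Tfpi sits near 0 in all 3 comparisons, while F3, Thbs1 and Procr show the widest differences.

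Short sequences around copies of the AP-1 motif are shown because AP-1 proteins, the Fos and Jun families, run high in freshly dissociated cells. The progenitors are also split below on UMIs of Nr4a3 and Fosl1 together, and Fosl1 encodes an AP-1 subunit. A RefSeq promoter (250 bases before to 50 after the start, build GRCm38.p6) was given for 5 of the 9 genes: F3, Procr, Plaur, Serpine2 and Tfpi. The motif TGANTCA was searched on both strands. It was found in 3 of these 5 genes, F3, Procr and Plaur, and in 7.81% of all 32851 promoters. The matches are written in capitals, 5′ to 3′ on the plus strand, which is also the strand of the 3 genes.
F3, chr3:121723379-121723420: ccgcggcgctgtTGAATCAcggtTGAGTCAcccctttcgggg
Procr, chr2:155751053-155751079: cccaccccccTGACTCAgcggcgacct
Plaur, chr7:24462404-24462430: cccctggagcTGACTCActctttagca
In F3 the matches begin 146 and 135 bases before the start, so that 4 bases lie between them. The Procr match begins 154 bases and the Plaur match 69 bases before the start. These distances are counted from the RefSeq start. For Procr that start lies further downstream than the GENCODE gene start printed below. The CRE motif TGACGTCA, held by 1.79% of promoters, was in none of the 5 genes' windows. The letters TATAAA, in 13.6% of promoters on either strand, were found in Tfpi, 127 bases before the start, and in F3, 43 bases after it. Which strand held each TATAAA match is not given here. A match is a string of letters and no evidence that a factor binds there.

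F3 (ENSMUSG00000028128, GRCm38 chr3:121723537-121735048, plus strand) had its highest level in the regulatory gate. F3 is itself a marker of this kind of cell and was left out of the regulatory markers above. Its high level in the regulatory gate is therefore no independent finding about the class. The F3 level in that gate was 504, 282 and 220 CPM in mice 1, 2 and 3. In the preadipocyte gate it was 66.7, 109 and 56.9 CPM, and in the progenitor gate 16.9, 15.6 and 14.9 CPM. The 3 gates did not overlap in any pair, and the spread was widest in regulatory cells, where mouse 1 was the highest. F3 was higher in regulatory than in progenitor cells by 4.33 on the log2 scale (SE 0.398, adjusted p = 0.00117) and higher in preadipocytes than in progenitors by 2.22 (SE 0.369, adjusted p = 0.00682). The step from preadipocytes to regulatory cells was 2.11 (SE 0.369, adjusted p = 0.0183). Without mouse 3, the regulatory cells still exceeded progenitors, but the adjusted p was 0.0619 for preadipocytes over progenitors (log2 fold change 2.40) and 0.138 for regulatory cells over preadipocytes (2.16).

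The share of cells with at least 1 F3 UMI followed the same order. It was 62.7% in regulatory cells of mouse 1 (95% Clopper-Pearson interval 57.1 to 68.0), 61.2% in mouse 2 and 40.6% in mouse 3. Among progenitors it was 6.30%, 10.3% and 6.24%. Since detection rises with depth, each cell was also thinned at random to 3000 UMIs, which left out 1450 of 19931 progenitors, 167 of 5735 preadipocytes and 232 of 1322 regulatory cells that were shallower. At that equal depth F3 was found in 53.6%, 40.8% and 33.4% of regulatory cells, 12.3%, 20.3% and 12.9% of preadipocytes and 3.56%, 3.74% and 3.27% of progenitors. Free RNA in the droplets adds UMIs to cells that do not express a gene, and no cell class known to lack F3 was numerous enough to measure it, since only 8 cells passed a leukocyte gate. The 70 cells of an endothelial gate held 5 F3 UMIs in all, or 7.80 to 31.9 CPM per mouse, a range that includes the progenitor levels. With so few cells, this comparison cannot show whether the F3 level of progenitors lies above background. At least 3 F3 UMIs were found in 0.983%, 1.44% and 0.773% of progenitors, with up to 20, 25 and 17 in a cell. How many such cells free RNA would give was not tested. Intervals cover counting error only.

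The regulatory gate held the highest F3 level but not most of the F3-rich cells. Cells with at least 3 F3 UMIs numbered 518, 619 and 328 in mice 1, 2 and 3. Of these, 22.6%, 28.1% and 17.7% were in the regulatory gate, 28.0%, 43.3% and 23.5% in the preadipocyte gate and 14.1%, 7.43% and 22.0% in the progenitor gate. A further 40.3%, 27.6% and 41.8% met none of the gates. Both genes of the regulatory gate went with F3 in all kept cells, in a breakdown chosen after the gate values were seen. Cells with neither Clec11a nor Fmo2 had 28.5, 36.8 and 22.5 CPM of F3 in mice 1, 2 and 3. Cells with a Clec11a UMI only had 91.0, 60.7 and 49.3 CPM, and cells with a Fmo2 UMI only had 120, 96.4 and 75.5 CPM. Cells with UMIs of both genes had 429, 239 and 185 CPM. These 397, 657 and 658 cells include the whole regulatory gate (319, 503 and 500 cells), so their level largely restates that of the gate. The order was the same in each mouse, and cells with neither gene still held 50.3%, 38.9% and 54.0% of all F3 UMIs, because they were the most numerous.

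**Figure D2:**
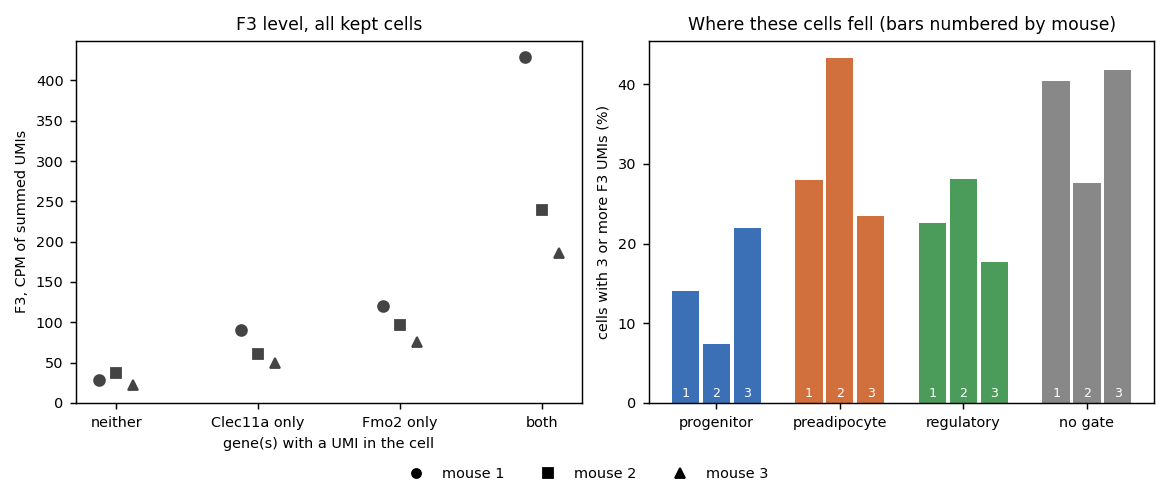
Left, F3 level (CPM of summed UMIs, vertical axis) in all kept cells grouped by which of Clec11a and Fmo2 had a UMI, 1 point per mouse. Right, percent of the cells with 3 or more F3 UMIs that fell in each gate or in none, 1 bar per mouse; a cell in 2 gates counts in both, and the regulatory gate holds 17.7% to 28.1% of them.

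Tfpi (ENSMUSG00000027082, chr2:84432855-84476775, minus strand), the inhibitor of tissue factor, did not follow F3. It stood at 31.2, 31.8 and 25.7 CPM in progenitors, 33.6, 32.2 and 26.1 CPM in preadipocytes and 26.8, 29.9 and 22.1 CPM in regulatory cells. The 3 gates overlapped throughout, and mouse 3 was the lowest in each. The log2 fold changes were 0.00 (SE 0.0625, adjusted p = 0.968) for preadipocytes over progenitors, -0.15 (SE 0.0888, adjusted p = 0.214) for regulatory cells over progenitors and -0.15 (SE 0.0913, adjusted p = 0.272) for regulatory cells over preadipocytes. With standard errors under 0.1, differences as large as those of F3 would have been seen. The related gene Tfpi2, which encodes another Kunitz-type protease inhibitor, averaged 32.8, 79.1 and 83.9 CPM in the progenitor, preadipocyte and regulatory gates and was higher than in progenitors in both other gates (log2 fold changes 1.20 and 1.34, adjusted p = 0.00883 and 0.0144).

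**Figure D3:**
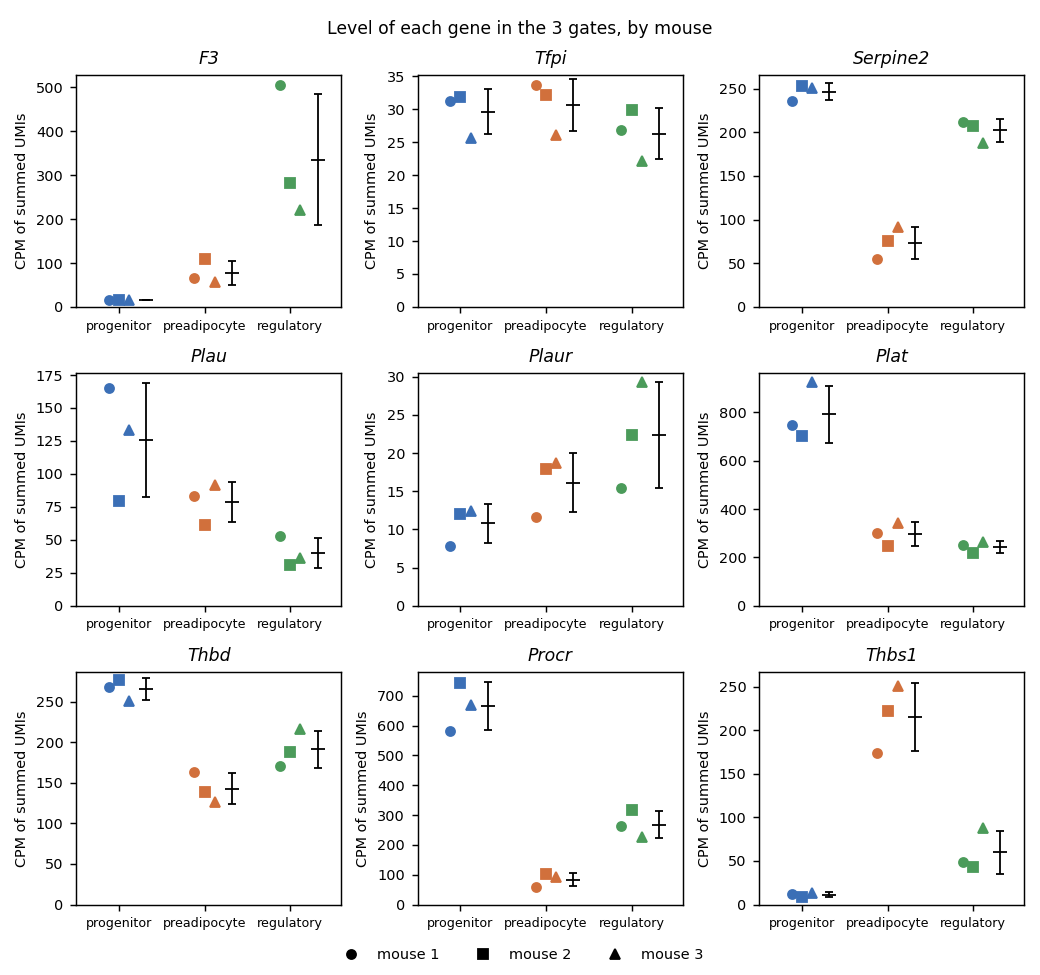
Level of each of the 9 genes (CPM of summed UMIs, linear vertical axis from 0) in the progenitor, preadipocyte and regulatory gates. Each symbol is a mouse, and the dash with bars is the mean ± SD of 3 mice; F3 runs from 14.9 to 504 CPM, while Tfpi stays between 22.1 and 33.6 CPM.

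Both plasminogen activators were highest in progenitors. Plat (ENSMUSG00000031538, chr8:22757727-22782844, plus strand) stood at 748, 702 and 927 CPM in progenitors, 303, 247 and 342 CPM in preadipocytes and 252, 217 and 264 CPM in regulatory cells. Every progenitor value lay above every value of the other gates, which overlapped with each other. Plat was lower than in progenitors by -1.46 on the log2 scale in preadipocytes (SE 0.0659, adjusted p = 1.53e-10) and by -1.69 in regulatory cells (SE 0.0696, adjusted p = 1.67e-10). The small difference between regulatory cells and preadipocytes (-0.23, SE 0.069, adjusted p = 0.024) did not pass when any 1 mouse was left out. At equal depth Plat was found in 78.8% to 85.3% of progenitors, 39.1% to 48.9% of preadipocytes and 31.7% to 44.6% of regulatory cells.

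Plau (ENSMUSG00000021822, chr14:20836660-20843385, plus strand), the gene of urokinase, was lower in steps from progenitors over preadipocytes to regulatory cells. It measured 165, 79.4 and 133 CPM in progenitors, 83.5, 61.6 and 91.3 CPM in preadipocytes and 53.1, 31.1 and 36.2 CPM in regulatory cells. Mouse 2 was lowest in each gate, and its progenitor value lay within the range of the preadipocytes, although within each mouse the order of the 3 gates was the same. The log2 fold changes were -0.68 (SE 0.123, adjusted p = 0.00186) for preadipocytes and -1.62 (SE 0.161, adjusted p = 8.76e-05) for regulatory cells against progenitors, and -0.94 (SE 0.165, adjusted p = 0.00434) between regulatory cells and preadipocytes. Without the mouse as a block, the first of these had an adjusted p of 0.051.

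Plaur (ENSMUSG00000046223, chr7:24462484-24475968, plus strand), the urokinase receptor, ran the other way at a low level. It was at 7.86, 12.1 and 12.4 CPM in progenitors, 11.6, 18.0 and 18.7 CPM in preadipocytes and 15.4, 22.4 and 29.4 CPM in regulatory cells. Ranges of neighbouring gates overlapped, and the order progenitor, preadipocyte, regulatory held within each mouse. Plaur was higher than in progenitors by 0.53 in preadipocytes (SE 0.0924, adjusted p = 0.000188) and by 1.03 in regulatory cells (SE 0.118, adjusted p = 6.02e-06). Regulatory cells exceeded preadipocytes by 0.50 (SE 0.119, adjusted p = 0.00642), which did not pass without mouse 3 (adjusted p = 0.103). Without the block, only the difference between regulatory and progenitor cells passed (adjusted p = 0.0253).

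Serpine2 (ENSMUSG00000026249, chr1:79794197-79861180, minus strand), the inhibitor protease nexin-1, was low in preadipocytes. Its level was 235, 253 and 251 CPM in progenitors, 54.4, 75.1 and 91.1 CPM in preadipocytes and 212, 207 and 187 CPM in regulatory cells. Preadipocytes did not overlap with the other gates. They were lower than progenitors by -1.81 on the log2 scale (SE 0.153, adjusted p = 5.29e-05), and regulatory cells exceeded them by 1.52 (SE 0.164, adjusted p = 0.000658). Regulatory cells and progenitors differed by -0.29 (SE 0.157, adjusted p = 0.188), which passed when mouse 1 was left out (adjusted p = 0.0113).

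Both cofactors of protein C activation were highest in progenitors. Procr (ENSMUSG00000027611, chr2:155751117-155755471, plus strand) measured 583, 743 and 668 CPM in progenitors, 57.9, 101 and 92.2 CPM in preadipocytes and 262, 317 and 225 CPM in regulatory cells. The 3 gates did not overlap. Procr was lower than in progenitors by -3.06 on the log2 scale in preadipocytes (SE 0.156, adjusted p = 2.41e-06) and by -1.31 in regulatory cells (SE 0.153, adjusted p = 0.000391), and regulatory cells exceeded preadipocytes by 1.74 (SE 0.159, adjusted p = 0.000236). At equal depth it was found in 70.9%, 78.1% and 73.5% of progenitors, 13.3%, 19.5% and 18.5% of preadipocytes and 43.3%, 45.8% and 34.5% of regulatory cells. Procr is also a known surface marker of some stem cells and of endothelium, and its level in the gates was almost the same once cells with any UMI of 7 endothelial, leukocyte, mural, mesothelial or Schwann cell genes were removed (57.1, 101 and 92.2 CPM in preadipocytes).

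Thbd (ENSMUSG00000074743, chr2:148404466-148408188, minus strand), the gene of thrombomodulin, varied less. It was at 269, 277 and 251 CPM in progenitors, 164, 139 and 126 CPM in preadipocytes and 171, 188 and 216 CPM in regulatory cells. Every progenitor value exceeded the others, and regulatory values lay just above those of preadipocytes. Thbd was lower than in progenitors by -0.94 in preadipocytes (SE 0.0952, adjusted p = 6.71e-06) and by -0.46 in regulatory cells (SE 0.101, adjusted p = 0.00331). Regulatory cells exceeded preadipocytes by 0.48 (SE 0.103, adjusted p = 0.00545). The differences of regulatory cells did not pass without mouse 2 (adjusted p = 0.087 against progenitors and 0.0767 against preadipocytes), nor did the last without mouse 3 (adjusted p = 0.0622), nor either with stricter gates (adjusted p = 0.16 and 0.13). The difference from progenitors shrank to -0.19 when cells were thinned before gating (adjusted p = 0.214), and that from preadipocytes had an adjusted p of 0.0602 without the mouse as a block.

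Thbs1 (ENSMUSG00000040152, chr2:118111876-118127133, plus strand; an exon of Gm29233 overlaps it on the opposite strand) was highest in preadipocytes among the 3 gates. It stood at 173, 222 and 250 CPM in preadipocytes, 48.6, 43.1 and 87.7 CPM in regulatory cells and 11.97, 8.12 and 13.8 CPM in progenitors. The gates did not overlap. In each mouse the Thbs1 level of progenitors was below their F3 level, and what free RNA adds to it was not tested. Thbs1 was higher than in progenitors by 4.22 on the log2 scale in preadipocytes (SE 0.219, adjusted p = 2.11e-05) and by 2.35 in regulatory cells (SE 0.262, adjusted p = 0.000991), and regulatory cells were below preadipocytes by -1.86 (SE 0.234, adjusted p = 0.00311). Its UMIs sat in few preadipocytes: 25.0%, 31.9% and 31.7% of them had any, and the 10% of preadipocytes with most Thbs1 UMIs held 79.2%, 73.7% and 70.1% of the gene's UMIs. For Plat, the 10% of preadipocytes with most of its UMIs held 40.6%, 44.7% and 42.5%. The same share was 77.1%, 60.9% and 70.3% for F3 and 62.1%, 61.1% and 58.5% for Procr, so such concentration was not particular to Thbs1. Cells in none of the gates held 36.5%, 25.0% and 39.8% of the Thbs1 UMIs. Thbs1 was at 157, 413 and 702 CPM in the 70 cells of the endothelial gate (33, 31 and 6 cells in mice 1, 2 and 3). Of these 70 cells, 53 were also in the preadipocyte gate, and the value of mouse 3 rests on 6 cells. Without the cells carrying markers of other types, Thbs1 was at 172, 223 and 249 CPM in preadipocytes. Its relatives differed: Thbs2, which encodes thrombospondin-2, averaged 224, 155 and 22.5 CPM and Thbs3 averaged 140, 57.4 and 143 CPM in the progenitor, preadipocyte and regulatory gates.

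**Figure D4:**
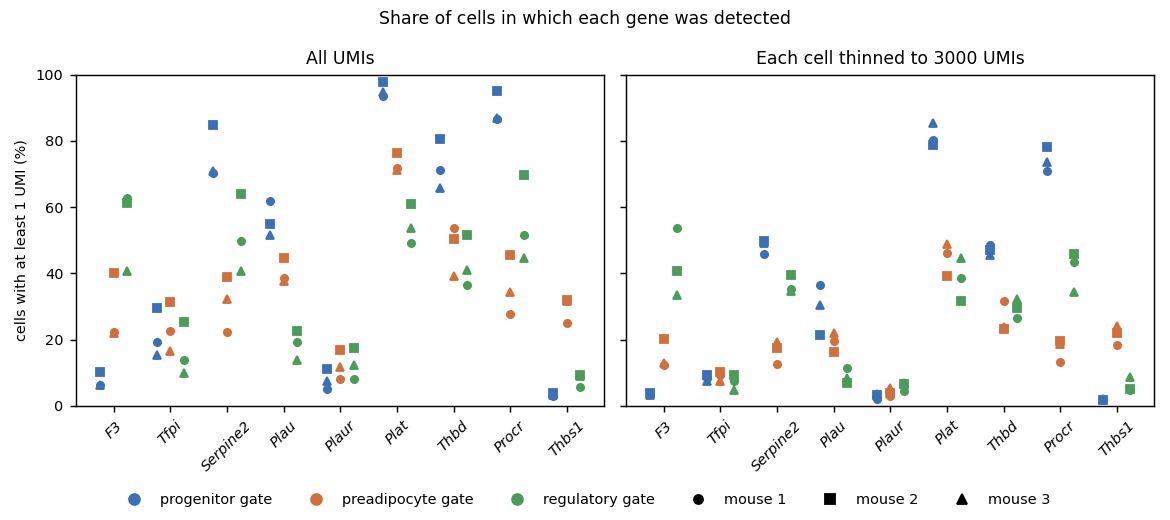
Percent of cells with at least 1 UMI of each gene (vertical axis, 0 to 100) in the 3 gates, 1 symbol per mouse, with all UMIs (left) and with each cell thinned to 3000 UMIs (right). The order of the gates for F3, Procr and Plat is the same in both.

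Single progenitors often carried several of these RNAs. At 3000 UMIs per cell a progenitor had a mean of 2.98, 2.93 and 3.00 of the 9 genes detected in mice 1, 2 and 3, a preadipocyte 1.66, 1.72 and 1.82 and a regulatory cell 2.25, 2.15 and 2.08. None of the 9 was detected in 0.847% to 1.12% of progenitors, 12.4% to 15.4% of preadipocytes and 4.37% to 7.43% of regulatory cells. Plat and Procr were found together in 57.6%, 61.9% and 63.0% of progenitors, and the product of their separate shares was 56.9%, 61.5% and 62.6%. Plat and Procr were thus found together about as often as their shares alone give. With shares this high, the joint share has limited room to differ from the product. In preadipocytes, Serpine2 and Procr were found together at between 1.54 and 2.03 times the product of their shares. F3 and Thbs1 were found together at between 1.24 and 1.43 times the product in regulatory cells and between 1.02 and 1.47 times in preadipocytes. In progenitors that ratio ran from 1.49 to 3.09, but at most 0.175% of the cells carried both. Serpine2 and Procr also lay above the product in regulatory cells (1.13 to 1.55 times). Some other pairs lay below the product. The pairs named here are examples, not all pairs. In regulatory cells the ratio ran from 0.64 to 0.839 for F3 and Serpine2 and from 0.644 to 0.959 for F3 and Procr. In preadipocytes both of these pairs lay above it (1.11 to 1.66 and 1.04 to 1.39), while F3 and Plat ran from 0.831 to 0.85.

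The study divided Icam1-positive preadipocytes by their level of Cd44, a hyaluronan receptor. The preadipocyte gate was therefore split into cells with at least 2 Cd44 UMIs (301, 348 and 337 cells in mice 1, 2 and 3) and cells with 0 (1570, 795 and 1188 cells). This gate counts Icam1 and Fabp4 together, so a cell can enter it on Fabp4 alone. The study also sorted cells on surface ICAM1 and CD44 protein, so these groups are not its populations. The Cd44-rich cells were somewhat deeper, with median UMIs of 8836, 13836 and 7558 against 7859, 12617 and 7096. Of 11354 genes, 19.6% passed the test, and so did 6 of the 9 genes: 5 higher and 1 lower in Cd44-rich cells. Of all calls 64.7% were higher in the Cd44-rich cells, but only 40.2% when sums were scaled by library size alone, which moved the median of all genes to -0.10 on the log2 scale. The 24 dissociation genes summed to 29995 CPM in Cd44-rich cells and 37951 CPM in Cd44-free cells on average. Of 7 progenitor markers tested, 6 were higher and 0 lower in Cd44-rich cells (median log2 fold change 0.37). Of 7 preadipocyte markers, 0 were higher and 5 lower (median -0.32). How much of the differences below goes with this shift was not tested. The 8 endothelial markers summed to between 1.17 and 3.10 CPM in Cd44-rich and between 7.17 and 101 CPM in Cd44-free cells, and the 6 calls held when cells with a UMI of another cell type's marker were removed.

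Plaur was at 22.6, 31.4 and 26.5 CPM in Cd44-rich cells and 9.03, 11.3 and 15.6 CPM in Cd44-free cells, without overlap. It rose by 1.30 on the log2 scale (SE 0.148, adjusted p = 1.36e-05), the widest difference of the 9 genes in this split. Procr was at 73.6, 145 and 129 CPM against 53.7, 79.3 and 78.5 CPM, higher in each mouse, a difference of 0.80 (SE 0.0842, adjusted p = 7.32e-06). Plat was at 378, 310 and 412 CPM against 290, 218 and 308 CPM, a difference of 0.53 (SE 0.0572, adjusted p = 8.58e-06). Thbs1 differed by 0.78 (SE 0.119, adjusted p = 0.00611) and Serpine2 by 0.50 (SE 0.105, adjusted p = 0.00606), though Serpine2 in mouse 1 was at 56.1 CPM in Cd44-rich and 54.4 CPM in Cd44-free cells. F3 was lower in Cd44-rich cells, at 57.5, 78.2 and 43.3 CPM against 75.7, 127 and 57.8 CPM, a difference of -0.44 (SE 0.0828, adjusted p = 0.00138). Without mouse 2 the adjusted p was 0.0502 for F3 (log2 fold change -0.34) and 0.0821 for Serpine2 (0.32), and Serpine2 did not pass without mouse 3 either (0.48, adjusted p = 0.0613).

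Thbd was at 177, 241 and 202 CPM in Cd44-rich cells and 154, 89.8 and 99.8 CPM in Cd44-free cells. The rise was small in mouse 1 and wide in mice 2 and 3, and the difference of 0.98 (SE 0.351, adjusted p = 0.226) did not pass; without mouse 1 it was 1.34 (adjusted p = 7.67e-06). Tfpi and Plau did not pass (log2 fold changes 0.20 and -0.02, adjusted p = 0.176 and 0.953). The calls of this split rest on comparing cells of the same mouse: without the mouse as a block, edgeR called 0 of the 9 genes and 1 gene in all, with 5 of the 9 at an unadjusted p under 0.05, while DESeq2 with the block called 6 of the 9. When cells were thinned to 3000 UMIs before the gates and the split were applied, only Thbd passed, with a log2 fold change of 0.97, and Serpine2 (-0.40) and Plat (-0.11) turned direction. That setting left only 45, 32 and 70 Cd44-rich cells. Thinning after gating kept 300, 348 and 335 of them, and there 5 of the 9 genes were called higher and 1 lower. An equal count need not mean the same genes. Over the 14 alternatives to this split, Serpine2 passed in 9 and Tfpi in 1. Plaur, Plat, Procr and Thbs1 each passed in 12.

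Progenitors were split on Nr4a3, an orphan nuclear receptor, and Fosl1 into cells with at least 2 UMIs of the pair (3390, 1805 and 5514 cells) and cells with 0 (2788, 1010 and 2249 cells). The cells with these RNAs were deeper, with median UMIs of 7732, 12394 and 6967 against 6841, 11516.5 and 5984. Of 12707 genes, 20.8% passed, and so did 4 of the 9: Procr, Plat and Thbd, which were higher in the Nr4a3- and Fosl1-positive cells, and F3, which was lower. Of all calls 56.1% were higher, but only 24.8% with library-size scaling, under which the median of all genes stood at -0.11; the 4 genes kept their direction and their calls there. The dissociation genes averaged 20765 CPM in the positive and 26942 CPM in the negative cells. In the positive cells, 4 of 8 progenitor markers were higher and 1 lower. Of 7 preadipocyte markers 0 were higher and 5 lower, and of 6 regulatory markers 0 were higher and 3 lower. How much of the differences below goes with this shift was not tested.

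Procr was at 693, 877 and 773 CPM in positive and 449, 534 and 441 CPM in negative progenitors, without overlap, a difference of 0.84 (SE 0.0532, adjusted p = 6.82e-05). Thbd was at 297, 311 and 269 CPM against 237, 220 and 213 CPM (0.51, SE 0.0657, adjusted p = 0.00158). Plat was at 817, 762 and 983 CPM against 659, 598 and 819 CPM, higher within each mouse (0.43, SE 0.0508, adjusted p = 0.00106). F3 was at 13.5, 11.5 and 13.2 CPM against 22.7, 24.1 and 17.8 CPM (-0.62, SE 0.1, adjusted p = 0.00416). Of the 3 genes with an AP-1 motif in their promoter window, Procr was higher, F3 lower, and Plaur not called (0.43, SE 0.202, adjusted p = 0.196). No promoter was given for Plat or Thbd, and a cell could be positive on Nr4a3 UMIs alone. Whether the motif has a part in these differences was not tested. Plaur passed without mouse 1 (0.63, adjusted p = 0.0445). Thbs1 was at 11.3 CPM in positive and 20.4 CPM in negative progenitors of mouse 3, opposite in direction to the other mice. Without mouse 3 its log2 fold change was 0.86 (adjusted p = 0.0201). What free RNA adds at levels this low was not tested. Without the mouse as a block, edgeR called 0 of the 9 genes and 12 genes in all, with 4 of the 9 at an unadjusted p under 0.05, while DESeq2 with the block called 4 of the 9.

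**Figure D5:**
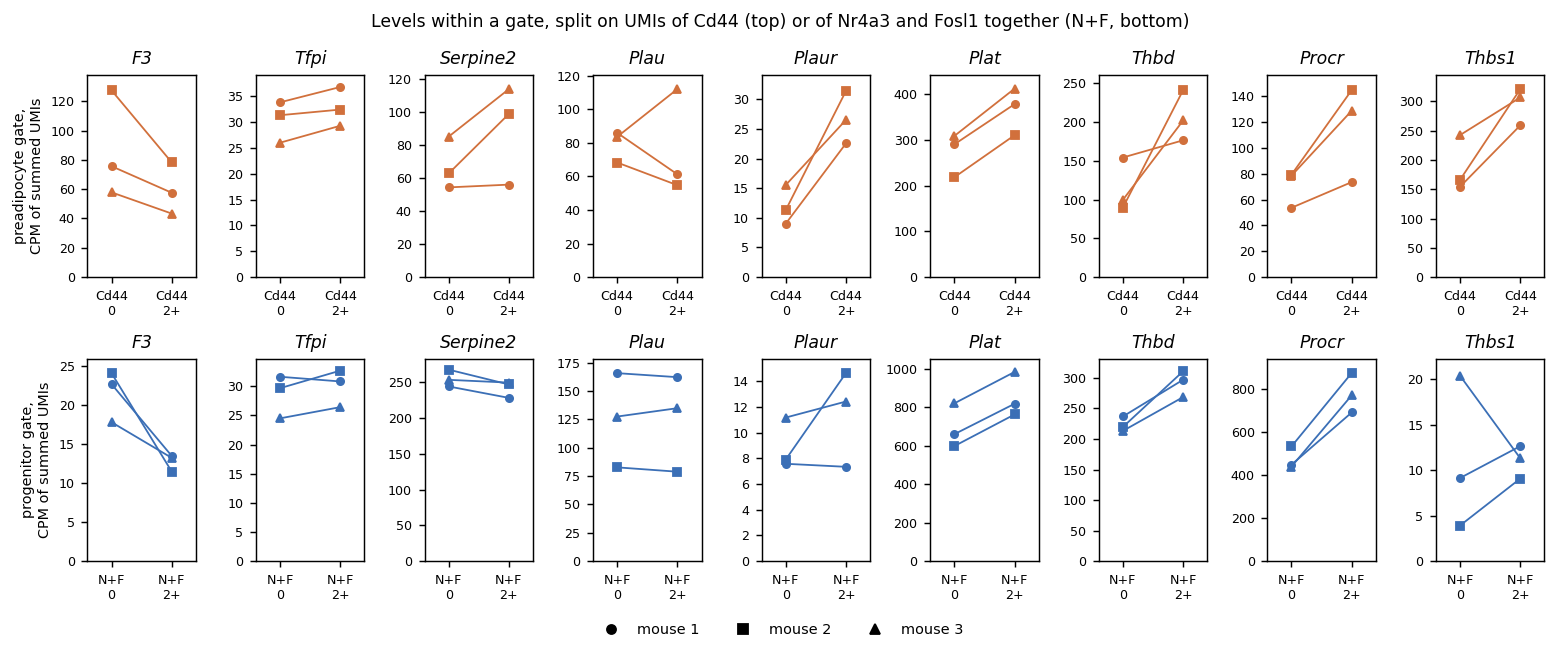
Level of each gene (CPM of summed UMIs, linear axis from 0) in preadipocytes without Cd44 and with 2 or more Cd44 UMIs (top), and in progenitors without and with 2 or more UMIs of Nr4a3 and Fosl1 together (bottom). Each line joins the cells of 1 mouse; Procr and Plat are higher on the right in each mouse of both rows, and F3 is lower.

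A list of 51 other genes of clotting, plasminogen activation and thrombospondin binding was read beside the 9. Of these, 24 passed the filter on low counts between the gates, 27 stayed under 1 CPM in each gate, and 8 had no UMI there: Plg, F9, F11, F13b, Fga, Kng1, Cpb2 and Serpina5, most of which are made by the liver. With 216168439 UMIs in the gates, 0 UMIs allows a level of up to 0.0139 CPM for each (3 counts over all gates). Plasminogen itself was therefore not detected in these cells. Between preadipocytes and progenitors, 9 of the 24 were higher and 8 lower, where 56.7% of all genes passed, with a median log2 fold change of 0.03 against 0.02 over all genes. The higher genes include Cd36, which also served above as a preadipocyte marker. Between regulatory cells and progenitors, 10 were higher and 6 lower (44.7% of all genes passed, median 0.17 against -0.03), and between regulatory cells and preadipocytes, 7 were higher and 6 lower (25.6% of all genes passed, median 0.10 against -0.03). In the Cd44 split 11 of 20 tested passed, each of them higher in Cd44-rich cells (median 0.26 against -0.00 over all genes), where 19.6% of all genes passed and the share of calls that were higher went from 64.7% to 40.2% with library-size scaling. In the split on Nr4a3 and Fosl1, 5 of 25 were higher and 1, Gas6, was lower in the positive cells (20.8% of all genes passed, median 0.04 against 0.00). Without the mouse as a block, edgeR called 1 gene in all in the Cd44 split and 12 in the other.

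Several of these genes differed widely. Gas6, a vitamin K-dependent ligand of the TAM receptors, averaged 68.1 ± 5.48 CPM in progenitors, 236 ± 22.5 CPM in preadipocytes and 1388 ± 295 CPM in regulatory cells (SD, n = 3), and regulatory cells exceeded progenitors by 4.34 on the log2 scale (adjusted p = 1.79e-09). Pros1, the gene of protein S and the relative of Gas6 that serves protein C as a cofactor, averaged 87.6, 145 and 149 CPM in the progenitor, preadipocyte and regulatory gates, higher in both other gates than in progenitors (0.68 and 0.78, adjusted p = 2.52e-07 and 3.21e-07). F2r, the thrombin receptor PAR1, was low everywhere but stood highest in regulatory cells (8.95 CPM against 0.911 and 2.67, adjusted p = 0.000122 against progenitors). Serping1, the gene of the C1 inhibitor, averaged 2839, 1451 and 3657 CPM, and was lower in preadipocytes than in progenitors by -1.02 (adjusted p = 9.29e-08).

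The genes of the enzymes that turn ATP into adenosine, which restrains platelets, were lowest in preadipocytes. Nt5e averaged 20.7, 2.84 and 20.8 CPM in the progenitor, preadipocyte and regulatory gates, and Entpd1 averaged 11.1, 1.08 and 3.31 CPM. Both were lower in preadipocytes than in progenitors (-2.92 and -3.42, adjusted p = 1.93e-10 and 1.02e-09). Cd36, a thrombospondin receptor and fatty acid carrier, averaged 2.77, 159 and 8.21 CPM, and was higher in preadipocytes than in progenitors by 5.84 (adjusted p = 4.28e-06). Cd36 also belongs to the preadipocyte markers used above to check the gate names. Its high level in that gate is therefore no independent finding. The integrin genes Itgav and Itgb3 were lower in preadipocytes than in progenitors by -1.06 and -1.01 (adjusted p = 4.55e-09 and 6.69e-08). They were also lower in regulatory cells than in progenitors, by -0.964 and -1.18 (adjusted p = 1.7e-07 and 2.5e-06). The annexin A2 complex, a surface site for plasminogen and tissue-type plasminogen activator, varied little between the gates: Anxa2 averaged 546, 643 and 664 CPM, S100a10 averaged 1336, 1360 and 1590 CPM, and Lrp1, a receptor that clears activator and inhibitor complexes, averaged 680, 712 and 570 CPM. In the Cd44 split S100a10 was higher in Cd44-rich cells by 0.51 (adjusted p = 1.25e-06) and Anxa2 by 0.35 (adjusted p = 0.000199). Without the mouse as a block, edgeR called 0 genes higher in that split, so neither passed there.

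For each gene, the 3 genes with the most similar pattern were taken by Pearson's r over 12 sums (3 gates and the ungated cells in 3 mice) of log2(CPM + 1), after the mean of each mouse was taken off, among 3313 genes. The sums share libraries and the points of 1 mouse are not independent, so r is a description. Each r is also among the highest of 3313, so a high value is partly a result of that selection. Even Tfpi, which passed in no comparison of gates, had r between 0.956 and 0.959. Closest to F3 were Crispld2, Cpe and mt-Nd4l, each with r = 0.993. Closest to Procr were Lvrn (0.999), Ace (0.996) and Prkg2 (0.993), and closest to Plat were Wnk1, Cd55 and Emilin2 (each 0.997). Closest to Thbs1 were Col4a1 (0.991), Fam49a (0.990) and Hikeshi (0.990), and closest to Serpine2 were Gpc3 (0.991), Ackr1 (0.990) and Cadm3 (0.986). Closest to Plau were Ugcg, Osr2 and Pxdn, to Plaur Lsm7 and Ifnar2, to Thbd Rpl38, Clip4 and Ubl5, and to Tfpi Dnaja2, Lncpint and Lsm12, with r between 0.956 and 0.996.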

How the data were processed

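The counts deposited by the authors are whole-number UMI counts per gene and cell barcode, not normalized, from 3 libraries of 1 mouse each, with 95899433, 79801002 and 100846072 UMIs in 13698, 6872 and 16220 barcodes. The authors aligned reads and counted UMIs with Cell Ranger; the submitters' processing notes list version 2.1.1 and build mm10, while the file headers of the matrices give 4.0.0. Every barcode has at least 500 UMIs. Gene positions come from GENCODE M21 (GRCm38), which holds 32235 of the 32285 gene identifiers, and promoters from RefSeq (GRCm38.p6).

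The gates, the 9 genes and the gene lists were chosen with earlier results of these data known. Gates were set on raw UMIs, doublets were not called (leaving out the 5% of cells with most UMIs is an alternative), and UMIs were summed per mouse and gate. Sums were tested with edgeR 4.0.16 in R 4.3.3 (filterByExpr, TMM, robust quasi-likelihood fit, mouse as a block), with 9 sums for the gates and 6 for each split, and standard errors were derived from the F statistic. The 6 gate genes and the split genes were left out of counts of calls. Because gates and splits are made from the same cells, adjusted p-values of genes that vary with the gating genes understate the error, and with 1 library per mouse they rest on 3 animals. Sums of a mouse share both the animal and its library, and the 2 cannot be told apart here. After each gate's mean was taken off, same-mouse sums correlated at r between 0.446 and 0.845 over 7693 genes. Shares are descriptions, since 3 mice cannot reach a sign-flip p below 0.25. The scripts were tested on simulated data, where the share of false calls was above the nominal rate in the gate fit and in both split fits, so an adjusted p near the threshold is less certain than it reads. Alternatives were library-size and RLE scaling, DESeq2 1.42.0, no filter, no block, a mitochondrial limit of 10%, thinning to 3000 UMIs, cells removed for high UMIs or markers of other types, stricter gates and leaving out each mouse. For the comparisons of gates, cells that met 2 gates were also left out. Among other list genes, those named passed the test with a log2 fold change of 1 or more in size and averaged 10 CPM or more in a gate; F2r, Anxa2, S100a10, Lrp1, Pros1 and Gas6 were always named. Of the genes these rules and the search for similar patterns select, 2 are not reported here. Python 3.11.15, numpy 2.4.6, pandas 2.3.3, scipy 1.17.1 and matplotlib 3.10.9 were used.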

Additional observations from a re-analysis of the deposited data

How the results depend on the processing

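Over the 5 comparisons, the 9 genes gave 657 log2 fold changes under the alternatives. Of these, 592 kept their direction and their side of the threshold, 35 no longer passed, 11 passed where they had not, and 19 changed sign; where no cause is given, the cause was not tested. Tfpi in preadipocytes over progenitors turned to -0.0050042 with RLE scaling, -0.0050805 with DESeq2 and -0.0112 without the filter, and ran from -0.0089 to 0.0188 when a mouse was left out. In the Cd44 split, Plau was at 0.0321 with thinning after gating, 0.24 with thinning before gating, 0.0374 without the deepest cells, 0.0245 with the stricter split and from -0.32 to 0.15 without a mouse, and thinning before gating gave -0.40 for Serpine2 and -0.11 for Plat. In the split on Nr4a3 and Fosl1, library-size scaling gave -0.0788 for Serpine2 and -0.0043785 for Plau, and Thbs1 was at -0.17 and -0.27 with thinning after and before gating and from -0.18 to 0.86 without a mouse.

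Without the replicate block, genes called in all were 4000 for preadipocytes over progenitors, 3175 for regulatory cells over progenitors, 1471 for regulatory cells over preadipocytes, 1 in the Cd44 split and 12 in the split on Nr4a3 and Fosl1. Of the 9 genes, it called 5 for regulatory cells over preadipocytes and 0 in each split, and Plau in the Cd44 split was at 0.0281. Thinning before gating gave 3516 calls for regulatory cells over progenitors, 1997 for regulatory cells over preadipocytes, 178 in the Cd44 split (with 1 of the 9 genes) and 1588 in the other split. Thinning after gating gave 2235 calls for regulatory cells over preadipocytes, 1016 in the Cd44 split and 1625 in the other, and DESeq2 gave 804 and 1215 in the splits. Without the filter, 7 of the 9 genes were called in the split on Nr4a3 and Fosl1. Leaving out a mouse gave 2273 to 2695 calls for regulatory cells over preadipocytes, with 4 to 7 of the 9 genes (4 without mouse 3), 1036 to 1697 calls in the Cd44 split (fewest without mouse 2, and 1468 without mouse 3) and 1271 to 2893 in the split on Nr4a3 and Fosl1 (fewest without mouse 3). The median share of cells with a UMI over the 9 genes and 3 gates was 19.2% at 3000 UMIs per cell against 35.8% with all UMIs, as fewer UMIs were counted. The regulatory gate, with as few as 319 cells in a mouse, gave the fewest UMIs of the 3 gates in each mouse. At an equal CPM its levels therefore carry the most counting error.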
